A study of Arabidopsis thaliana with 3 samples.

Results

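After the best-known auxin families were set aside, 55 named Arabidopsis thaliana genes had a positive ratio of at least 1.5-fold at both 40 and 60 minutes of a treatment with the auxin indole-3-acetic acid (IAA). They were found among 12127 named genes with a value on all 3 arrays. The rule took every named gene with a log2 ratio of at least 1.5-fold (0.58 on the log2 scale) on the 40 minute and on the 60 minute array. It left out symbols starting GH3, IAA or LBD and 9 further genes, among them HAT2, WAG2 and AT5G66580. WES1 stayed in, since its current symbol does not start with GH3, although its synonym is GH3.5, and 54 genes remain without it. The genes were chosen by their 40 and 60 minute values, so those values are given below as a description and without a test, and only the 20 minute array lies outside the threshold of the rule.

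The seedlings were of ecotype Col-0, with stratification (a cold treatment) at 4 °C for 48 h, per the labels. They had grown in darkness at 25 °C for 4 days on medium with 1% sucrose. They were covered with a solution of 0.1% ethanol that either held 10 µM IAA or did not, also per the labels. At 20, 40 and 60 minutes whole seedlings from plates sown with about 500 seeds were frozen together, so each RNA is a pool of all organs. Each time has 1 array with 2 channels, ethanol seedlings in channel 1 and IAA seedlings in channel 2, and no replicate, so no value carries a replicate error and no test was made. Which channel was divided by which is not stated: a positive ratio is likely IAA over ethanol, on the order of the channels and the positive ratios of known auxin genes. A ratio shows neither the level of a transcript nor the tissue it came from. Tissue markers therefore give a difference between the treatments and not the makeup of the seedlings. The root hair markers EXPA7 and EXPA18 stood at -0.40 and -0.54 at 20, -0.15 and -0.23 at 40, and -0.10 and -0.27 at 60 minutes. The light-grown shoot markers LHCB4.1 and PORB stood between -0.04 and 0.26 over the 3 times. These 4 were the measured genes of 2 marker lists, and their part in the ratios of the members was not tested.

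Auxin binds receptors of the TIR1/AFB family together with Aux/IAA repressors, which are then degraded, and this frees auxin response factors (ARFs) to act on their target genes. Transcripts of direct targets such as GH3, SAUR, Aux/IAA and LBD genes are known to accumulate within minutes in seedlings. In dark-grown seedlings auxin is known for its control of hypocotyl elongation, the apical hook and lateral root initiation.

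The spread over all probes gives a scale for single ratios. Its robust SD (from the median absolute deviation) was 0.165 at 20, 0.221 at 40 and 0.110 at 60 minutes on the log2 scale. The 1.5-fold threshold therefore lay 2.65 robust SDs from 0 at 40 minutes and 5.33 at 60 minutes, so the same fold is a looser condition on the 40 minute array. Among all named genes, 695 (5.73%) reached a positive ratio of that size at 40 minutes, and 272 (2.24%) did at 60 minutes. Both conditions were met by 69 genes (0.569%), which is 9.93% of the 40 minute list and 25.4% of the 60 minute list. On the negative side 1 gene (0.00825%) met both. Of the 69, 14 were left out by name and 55 remained. These shares describe the selection and nothing is read from them.

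**Figure D1:**
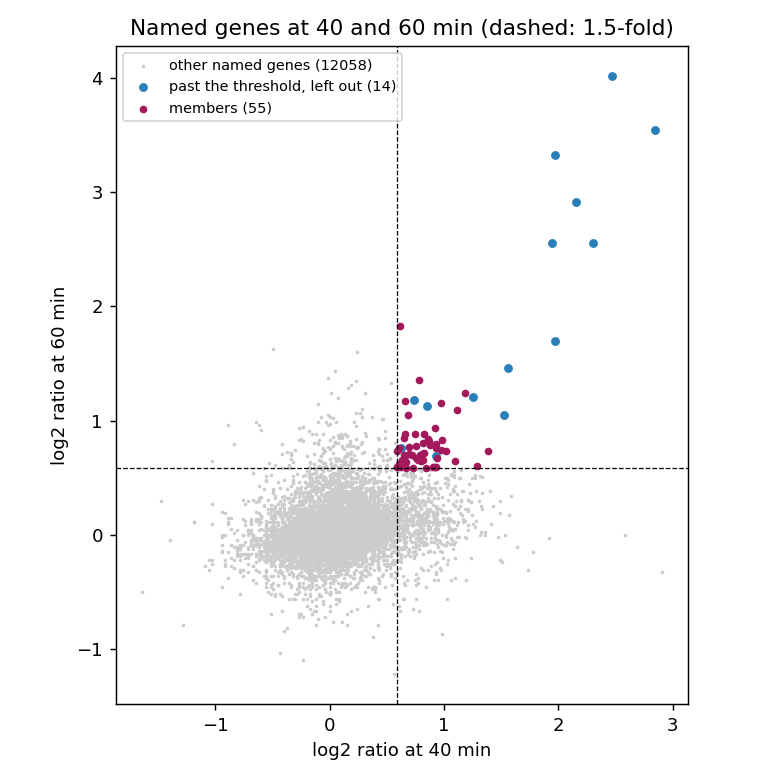
Log2 ratio at 60 minutes (vertical axis) against 40 minutes (horizontal axis) for 12127 named genes, 1 array per time. The 55 members, in red, lie mostly just beyond the dashed 1.5-fold lines, whereas 12 of the 14 genes left out, in blue, were at least 2-fold at 60 minutes.

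The members were positive by little. Their median log2 ratio was 0.78 at 40 minutes, with a range of 0.58 to 1.38, and 0.70 at 60 minutes, with a range of 0.58 to 1.82. At least 2-fold at both times were 2 of the 55, AT1G03990 and AT1G14500, beside 0.099% of all named genes. The 14 genes left out had medians of 1.75 and 1.58, and 10 of them were at least 2-fold at both times. Just inside the threshold, at a ratio of 1.5, lay AT5G43590, AT5G26130 and AT1G34330 at 60 minutes and AT5G38690, AT5G14890 and AT5G24130 at 40 minutes. Just outside it, AT1G63070 had a ratio of 1.49 at 40 minutes, and AT1G58215 and AT1G76290 had one of 1.49 at 60 minutes. AT1G09410, AT1G29630, AT2G35380 and BZIP34 followed, tied at a log2 ratio of 0.57 at 60 minutes. At the threshold 1 rounding step of the deposited ratio is 0.0096 on the log2 scale. With the arrays scaled to one robust SD, 26 of the 55 still passed at both times, ICL, TRM24 and AGL72 among them and WES1, UGT73C2 and AT1G66360 not.

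At 20 minutes the members stood close to all named genes. Their median log2 ratio was 0.04, beside 0 for all named genes, and 32 of 55 (58.2%) were above 0, beside 47.6% of all named genes. Taking early to mean a ratio of at least 1.2 at 20 minutes (0.26 on the log2 scale), 5 members (9.09%) were early and 50 were late, and the background share was 8.37%. At the stricter 1.5-fold there was 1 early member, WES1, where the background was 1.24%. On the other side, 5 members (9.09%) were at least 1.5-fold negative at 20 minutes, where 1.28% of all named genes were. At 1.2-fold, 9.09% of members were positive and 12.7% negative, beside 8.37% and 8.9% of all named genes. At 1.5-fold, these shares were 1.82% and 9.09%, beside 1.24% and 1.28%. The genes removed by name were all positive at 20 minutes, so nothing is read from the difference between the sides. The rule had removed genes that stood high from 20 minutes on: all 14 genes left out were early, from 0.42 to 2.45, and with them kept in 19 of 69 genes (27.5%) were early.

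**Figure D2:**
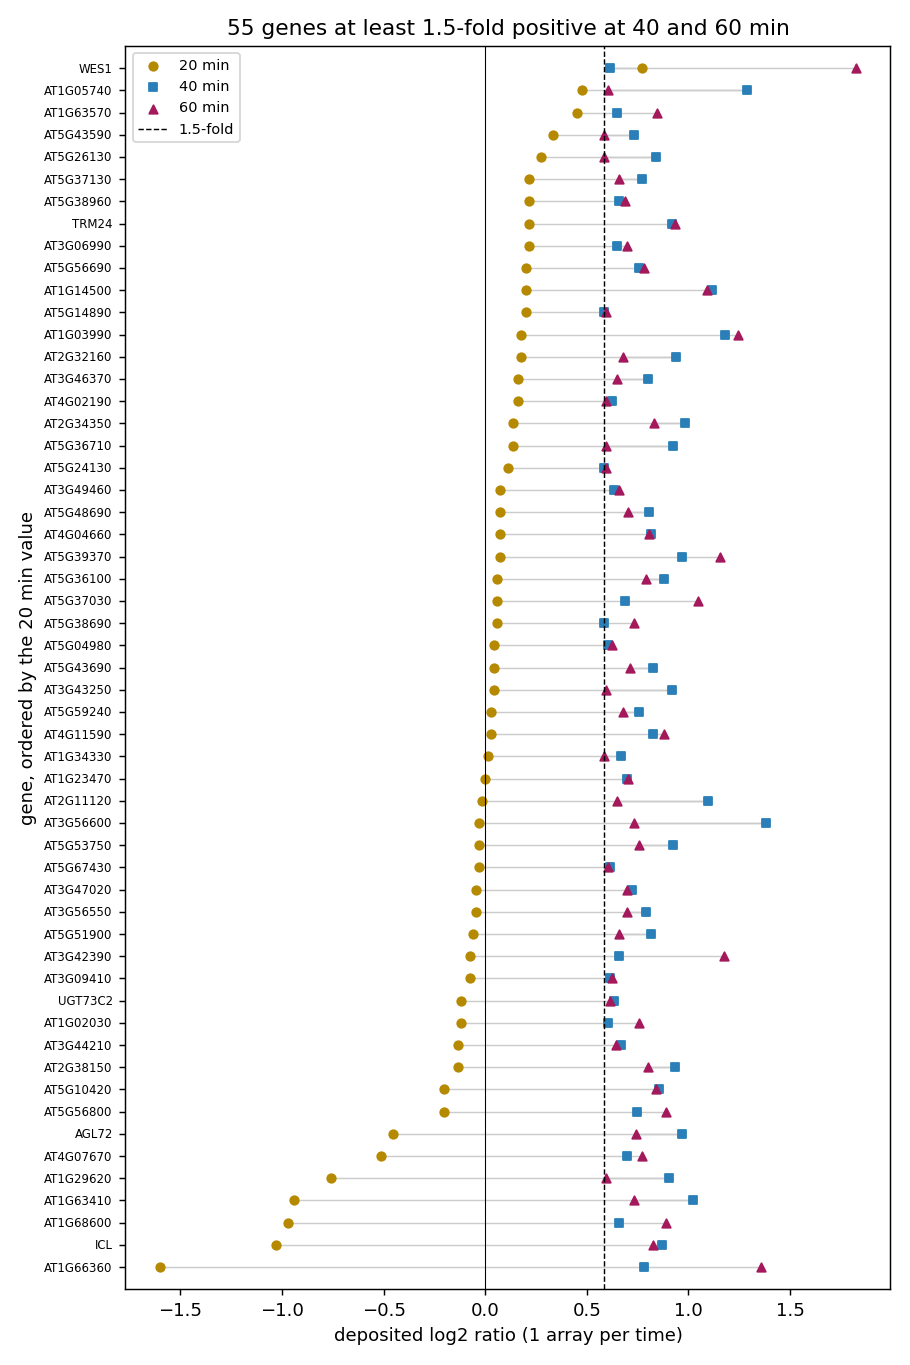
Log2 ratio of each of the 55 members at 20 (circles), 40 (squares) and 60 minutes (triangles), 1 array per time, ordered by the 20 minute value. WES1 alone lies beyond 1.5-fold (dashed line) at 20 minutes, 5 genes at the bottom lie at or below -0.76 there, and the others lie between -0.51 and 0.48.

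The same threshold was met by 72 of the 9732 probes that have no name in the platform annotation used here (0.74%). Of these, 44 (61.1%) were at least 1.2-fold positive at 20 minutes, beside 9.11% of all unnamed probes, and 0 were at least 1.5-fold negative, beside 1.22%. At 20 minutes the median over these probes was 0.69 on the log2 scale, followed by 1.07 and 1.04 at the later times. Named genes past 1.5-fold at 40 minutes alone numbered 626, with 9.42% early and 5.11% at least 1.5-fold negative at 20 minutes. Those past it at 60 minutes alone numbered 203, with 15.3% early and 3.94% negative. In its early share the named set of 55 was therefore nearer to the genes past the threshold at a single time than to the unnamed probes past it at both. These differences between sets were not tested, since each share comes from 1 array and the 55 lack the genes removed by name.

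**Figure D3:**
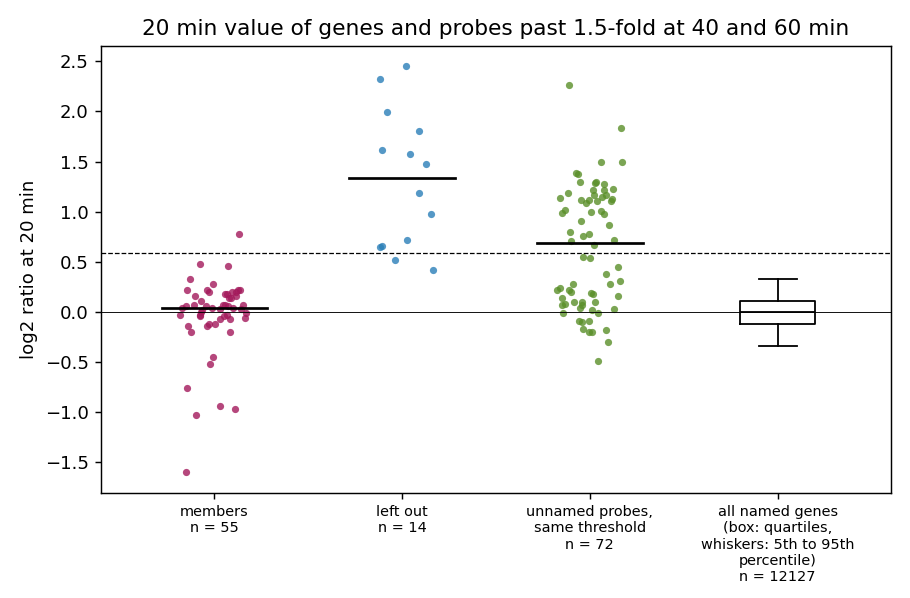
Log2 ratio at 20 minutes of the 55 members, the 14 genes left out, the 72 unnamed probes past the same threshold (points, with the median as a bar) and all 12127 named genes (box). The members' median lies at 0.04, that of the genes left out at 1.34 and that of the unnamed probes at 0.69.

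Among the early members, WES1 (AT4G27260), an enzyme of the GH3 family that joins auxin to amino acids, stood at 0.77 at 20, 0.61 at 40 and 1.82 at 60 minutes. Its 60 minute value, a ratio of 3.54, was the highest of the 55, and its 40 minute value was among the lower ones. AT1G05740 stood at 0.48, 1.29 and 0.60, a peak at 40 minutes. AT1G63570 was higher at each later time, with 0.45, 0.65 and 0.85. AT5G43590 stood at 0.33, 0.73 and 0.58, and AT5G26130 at 0.28, 0.84 and 0.58. The last pair sits exactly at a ratio of 1.5 at 60 minutes, so that 3 early members remain when that ratio is not counted as past the threshold.

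At least 1.2-fold negative at 20 minutes were 7 members (12.7%), beside 8.9% of all named genes. The share was 15.0% for named genes past 1.5-fold at 40 minutes alone and 13.3% for those at 60 minutes alone. ICL and AGL72, which have a symbol, were among the 7. The gene ICL (AT3G21720) encodes isocitrate lyase, an enzyme of the glyoxylate cycle through which oilseed seedlings turn stored lipid into sugar. It stood at -1.03 on the 20 minute array, and at 0.87 and 0.82 on the later arrays. AGL72 (AT5G51860), a MADS-box transcription factor gene of the AGAMOUS-like group, stood at -0.45, 0.97 and 0.74. In both, the 40 and 60 minute values differed by less than the robust SD of that difference over all named genes (0.245), and the 20 minute value alone stood on the other side.

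The other genes of this kind carry a locus code only. AT1G66360 had the widest span of the 55, with -1.60, 0.78 and 1.36. AT1G68600 stood at -0.97, 0.66 and 0.89, and AT1G63410 at -0.94, 1.02 and 0.73. AT1G29620 stood at -0.76, 0.90 and 0.59, while its neighbour AT1G29630, just under the threshold at 60 minutes, stood on the positive side at 20 minutes, at 0.97. AT4G07670 stood at -0.51, 0.70 and 0.77. Of the 5 members at least 1.5-fold negative at 20 minutes, 4 lie on chromosome 1 by their locus code, as counted once the values were known. Among all 155 named genes that far on the negative side at 20 minutes the share was 50.3%, against 25.8% of all named genes, so an excess of chromosome 1 codes marks the negative side of the 20 minute array as a whole.

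The remaining 43 members lay within 1.2-fold of a ratio of 1 at 20 minutes, between -0.20 and 0.21. Of these, 18 were higher at 60 than at 40 minutes. TRM24 (AT5G51850) belongs to the TON1 recruiting motif proteins, a family linked to the TON1 protein that organises cortical microtubules. It stood at 0.21, 0.92 and 0.93, so the later times differed by no more than rounding steps. AT1G03990 stood highest of the 18 at both later times, with 0.18, 1.18 and 1.24. AT3G42390 stood at -0.07, 0.66 and 1.18, AT5G39370 at 0.07, 0.97 and 1.16, and AT5G37030 at 0.06, 0.69 and 1.05. In AT3G42390 and AT5G37030 the 60 minute value exceeded the 40 minute value, by 0.52 and 0.36.

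Less far from the threshold, AT5G56800 stood at -0.20, 0.75 and 0.89, and AT4G11590 at 0.03, 0.82 and 0.88. AT5G56690 stood at 0.20, 0.76 and 0.78, and AT1G02030 at -0.12, 0.60 and 0.76. In these 4 genes the later values were between 1.5-fold and 2-fold. AT5G38690 stood at 0.06, 0.58 and 0.73, and AT1G23470, which kept the annotation's name because it has no match in the RefSeq table, at 0, 0.70 and 0.70. AT3G06990 stood at 0.21, 0.65 and 0.70, and AT5G38960 at 0.21, 0.66 and 0.69. The last 5 of the 18 stayed within 0.1 of the threshold at both later times. AT3G49460 stood at 0.07, 0.63 and 0.66, AT3G09410 at -0.07, 0.61 and 0.62, and AT5G04980 at 0.04, 0.60 and 0.62. AT5G14890 stood at 0.20, 0.58 and 0.59, and AT5G24130 at 0.11, 0.58 and 0.59.

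The other 25 were higher at 40 than at 60 minutes. UGT73C2 (AT2G36760), a UDP-glucosyl transferase gene of a family that adds sugar to small molecules, stood at -0.12, 0.63 and 0.61. AT3G56600 had the highest 40 minute value of the 55, with -0.03, 1.38 and 0.73. AT1G14500 stood at 0.20, 1.12 and 1.09, the highest 60 minute value of the 25. AT2G11120, a pseudogene in RefSeq, stood at -0.01 at 20 and 0.65 at 60 minutes, with a ratio of 2.14 at 40 minutes. Its 60 minute value, like that of AT3G56600, was well under that at 40 minutes, whereas AT1G14500 and UGT73C2 kept nearly the same ratio.

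Between 0.9 and 1 at 40 minutes were a further 6. AT2G34350 stood at 0.14, 0.99 and 0.83, AT2G32160 at 0.18, 0.94 and 0.68, and AT2G38150 at -0.14, 0.93 and 0.80. AT5G53750 stood at -0.03, 0.93 and 0.76, AT5G36710 at 0.14, 0.93 and 0.59, and AT3G43250 at 0.04, 0.92 and 0.59. The last pair stood nearly at the threshold at 60 minutes. Another 6 lay between 0.8 and 0.9 at 40 minutes. AT5G36100 stood at 0.06, 0.88 and 0.79, AT5G10420 at -0.20, 0.86 and 0.84, and AT5G43690 at 0.04, 0.82 and 0.71. AT4G04660, a transcribed pseudogene in RefSeq, stood at 0.07, 0.82 and 0.81, and AT5G51900 at -0.06, 0.82 and 0.66. AT5G48690 stood at 0.07, 0.81 and 0.70. Of these 6, AT5G51900 had the lowest 60 minute value.

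Below these came AT3G46370 at 0.16, 0.80 and 0.65, AT3G56550 at -0.04, 0.79 and 0.70, and AT5G37130 at 0.21, 0.77 and 0.66. AT5G59240 stood at 0.03, 0.76 and 0.68, and AT3G47020 at -0.04, 0.72 and 0.70. These 5 genes lay near the medians over the 55, which were 0.78 and 0.70. The lowest were AT3G44210 at -0.14, 0.67 and 0.64, the transcribed pseudogene AT1G34330 at 0.01, 0.67 and 0.58, AT4G02190 at 0.16, 0.62 and 0.59, and AT5G67430 at -0.03, 0.61 and 0.60.

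Over the 55, 32 were higher at 40 and 23 at 60 minutes, where 5951 and 5858 of all 12127 named genes were. Within the robust SD of the difference between these times lay 42 members. Beyond it, 4 were higher at 60 minutes (WES1, AT1G66360, AT3G42390 and AT5G37030) and 9 at 40 minutes. The ratio was higher at each later time in 22 of the 55 and in 1637 of all named genes. The rule asks for high values at both later times, so nothing is read from this count, and with 1 array per time such an order cannot be told apart from error.

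A locus code in place of a symbol was carried by 50 of the 55 (90.9%), close to the 88.1% of all named genes. RefSeq lists 3 of the 54 matched members as pseudogenes (5.56%), beside 2.63% of all matched named genes. The median gene length was 1752 bp, from 266 to 5407 bp, beside 2142 bp for all named genes and 1737 bp for the 14 left out. Locus codes of chromosome 5 were carried by 23 members (41.8%), beside 23.9% of all named genes. Chromosomes 1 and 3 each had 11 members, and chromosomes 2 and 4 each had 5. TRM24 and AGL72 are neighbours on chromosome 5 with no annotated gene between them, and AT5G51900 lies beyond AGL72 with 3 genes between. AT3G56550 and AT3G56600 are separated by 4 genes.

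The count of members varied along the probe numbers, and so did the share of chromosome 5 codes among them, which was not tested. Probe numbers that start with 516 held 7 members and 575 named genes. Probe numbers 528000 to 530999, the stretch of that length with most members and so chosen after the values were seen, held 16 members (29.1%) and 13.7% of all named genes. Of these 16, 12 carried a chromosome 5 code, while 24.3% of all named genes in the range did. Outside the range 28.2% of members carried a chromosome 5 code, beside 23.8% of all named genes. The probes of TRM24 and AGL72 lie well outside each other's 20 nearest probe numbers, at a spacing fixed for a count below. Among member pairs of chromosome 5 with at most 9 genes between, this spacing was the smallest, and spacing grew with the genes between. It was 412 for AGL72 and AT5G51900 (3 between), 515 for TRM24 and AT5G51900 (4), and 927 for AT5G43590 and AT5G43690 (9). The chromosome 3 pair AT3G56550 and AT3G56600 (4 between) lay 174 apart. For the chromosome 5 pairs, closeness on the chromosome and probe spacing therefore cannot be told apart. The probes of AGL72 and AT5G48690 lie next to each other, and so do those of AT5G53750 and AT5G56690. Over all probes, Spearman's rho between probes of successive numbers was 0.069 at 20, 0.099 at 40 and 0.151 at 60 minutes. Between probes 89 numbers apart it was 0.050, 0.091 and 0.127. At the spacing of TRM24 and AGL72 it was 0.054, 0.067 and 0.084. These values are across probes that are not independent.

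The 20 nearest probe numbers of a member stood at a median of 0.09 on the log2 scale at 40 minutes (median over members, from -0.07 to 0.26), beside 0.02 for all named genes. At 60 minutes it was 0.02 (from -0.07 to 0.11), beside 0.01. The spacings fixed for the next count were 1, 89 and that between TRM24 and AGL72. At these, a probe at least 2-fold positive was found for 6 members (10.9%) on the 40 minute array, beside 6.85% of all named genes. On the 60 minute array it was found for 3 members (5.45%), beside 2.66%. With the neighbours' median subtracted from each probe, 39 of the 55 still passed at both times, among them WES1, ICL, TRM24 and AGL72, and UGT73C2 did not. Where spots lay on the array was not analysed here, and the part of array position in these ratios was not tested further.

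**Figure D4:**
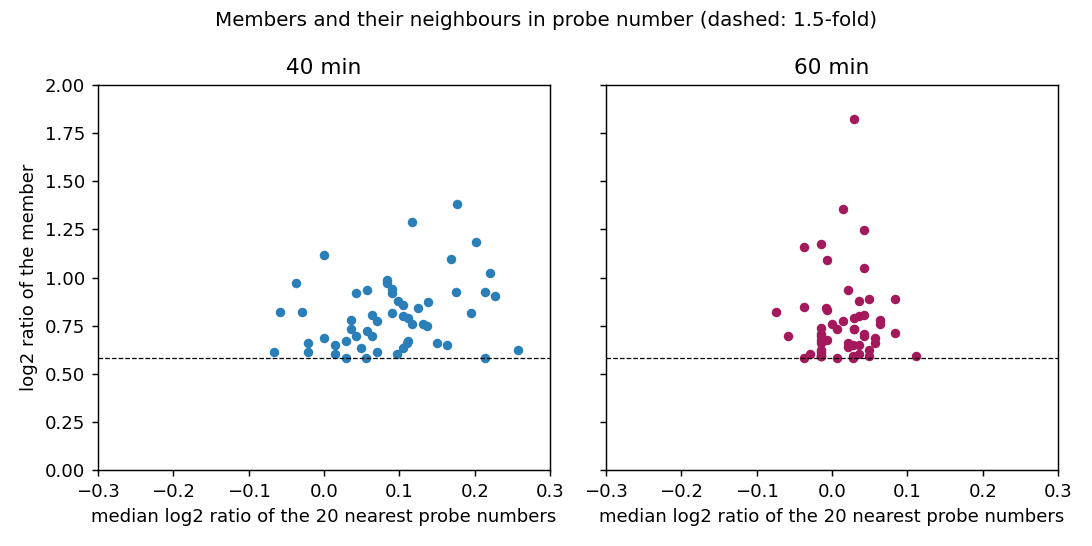
Log2 ratio of each of the 55 members (vertical axis) against the median log2 ratio of its 20 nearest probe numbers (horizontal axis) at 40 minutes (left) and 60 minutes (right). The neighbours lie between -0.07 and 0.26 at 40 minutes and between -0.07 and 0.11 at 60 minutes. The members lie above the 1.5-fold line by the rule that chose them, so nothing is read from the gap.

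Other genes were looked up in 18 lists of 328 symbols. The lists cover auxin and other hormones, cell walls, the cell cycle, low oxygen, stress, glutathione S-transferases and tissue markers. Of their genes, 31 were measured under a name, 7 of them from the cell wall list, and 0 belong to the 55. Counts and medians over the 31 are thus not a measure of hormone genes alone. The 55 are so small a part of all 12127 named genes that nothing is read from this 0. At least 1.5-fold positive were 1 of these 31 at 20, 1 at 40 and 0 at 60 minutes, beside 1.24%, 5.73% and 2.24% of all named genes. At least 1.5-fold negative were 1 at each time. The share of all named genes was 1.28% at 20 minutes and was not counted at 40 and 60 minutes, so nothing is read from these counts. Over the 31 the medians were -0.01, -0.01 and -0.03 at the 3 times, on the log2 scale. Among them the cytokinin response regulator RR16 stood at 0.65 at 40 minutes and -0.89 at 20 minutes, the same turn of side as ICL, but at 0.07 at 60 minutes. The brassinosteroid-linked transcription factor gene BIM1 stood at -0.79 at 40 minutes, and HRA1, which encodes a regulator of the response to low oxygen, at -1.03 at 60 minutes. PUCHI, a transcription factor gene of lateral root initiation, stood at 0.40, -0.01 and 0.04. XTH33, of the xyloglucan endotransglucosylase family that remodels cell walls, stood at 0.67, -0.17 and 0.37. The single measured gene of the auxin transport list, PID2, stood at 0.07, 0.03 and 0.21. The lists of auxin receptors and response factors, cell cycle, vascular and seed genes had 0 measured members.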

How the data were processed

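The deposited table holds log2 ratios for 21939 probes on 3 two-colour arrays, with 2 raised to each deposited log2 value a multiple of 0.01 on all arrays. What the authors did to make them (dyes, numerator, background correction, normalization) is not stated in the labels or the file. Gene names came from the platform annotation and were brought up to date with RefSeq's gene table of TAIR10.1: 12195 probes had 1 gene, 12142 of them matched and 53 kept the annotation's name. Probes of a gene were averaged (55 genes; no member has several). Columns of other samples numbered 0. Missing values numbered 9, 10 and 7.

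With 1 array per time no test was run. Counts of genes past 1.5-fold or 1.2-fold were set beside the same share over all 12127 named genes. Python 3.11.15, numpy 2.4.6, pandas 2.3.3 and matplotlib 3.10.9 were used. Depth is unknown, since spot intensities were not used here. All members are named, with the 5 genes nearest under the threshold (7 with ties) and list genes past 1.5-fold at 40 or 60 minutes. The list genes PUCHI, XTH33 and PID2 and the tissue markers lie outside that rule and were chosen after their values were seen. The members, the lists and the probe spacings of 89 and 103 were chosen with earlier results of these data known. Alternatives were scaling, centring, thresholds, naming, the genes left out and probe neighbours. Sequences were not analysed here.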

Additional observations from a re-analysis of the deposited data

Results flagged for a closer look

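In 5 members the ratio was at least 1.5-fold negative at 20 minutes and at least 1.5-fold positive at 40 and 60 minutes. With a single array at each time, none of these differences was tested, nor was the part of the 20 minute array in them. From 20 to 40 minutes the log2 ratio differed by 2.38 in AT1G66360, 1.90 in ICL, 1.63 in AT1G68600, 1.96 in AT1G63410 and 1.66 in AT1G29620, with the later value higher. From 20 to 60 minutes the difference was 2.96, 1.85, 1.86, 1.67 and 1.36 in the same order. These 5 were picked by their values at all 3 times, so wide differences were fixed by the choice. Genes outside the 55 turned side as well. Of the named genes past 1.5-fold at 40 minutes alone, 32 of 626 (5.11%) were at least 1.5-fold negative at 20 minutes. Of those past it at 60 minutes alone, 8 of 203 (3.94%) were.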

How the results depend on the processing

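The 55 genes numbered between 42 and 74 under the alternatives that kept the 1.5-fold threshold, and 2 at 2-fold, both of them late. Scaling the arrays to one robust SD gave 74 genes, of which 26 were among the 55: the count hides an exchange of genes, and WES1, UGT73C2 and AT1G66360 were among those lost. The early genes (5) numbered 9 with scaled arrays, 3 without ratios of exactly 1.5, 0 at 2-fold, 19 with the genes left out kept in, 3 with the neighbours' median subtracted (an alternative chosen after seeing the data), 32 with early meaning above 0 and 1 with early meaning 1.5-fold. The late genes (50) numbered 2 at 2-fold and 23 with early meaning above 0. The median 20 minute log2 ratio was 0.04, and -0.04 with the neighbours' median subtracted. Genes at least 1.5-fold negative at 20 minutes numbered 5 with scaled arrays, and 4 with the neighbours' median subtracted. The 5 with scaled arrays are not the same genes, since AT1G66360 was lost there. A planned count of promoter motifs was not run. No paired analysis was possible because each time has 1 array. A signal over background could not be stated, and 1 array per time limits every value.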
